A study of Mus musculus with 36 samples.

Results

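The mitochondrial genome encodes its own set of respiratory mRNAs, and 10 of them were followed here in mouse liver by their Ensembl identifiers, out of 36066 genes in the deposited expression table. They are *ND1* (ENSMUSG00000064341), *ND2* (ENSMUSG00000064345), *ND3* (ENSMUSG00000064360), *ND4* (ENSMUSG00000064363) and *ND5* (ENSMUSG00000064367) of complex I. *CYTB* (ENSMUSG00000064370) belongs to complex III, *COX1* (ENSMUSG00000064351), *COX2* (ENSMUSG00000064354) and *COX3* (ENSMUSG00000064358) to complex IV, and *ATP6* (ENSMUSG00000064357) to the ATP synthase. All 10 were found and all 10 were above 0 in each of 36 livers. The 3 other mRNAs of that genome, *ND6*, *ND4L* and *ATP8*, are given for comparison.

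RNA came from the whole livers of 36 mice aged 4 months and fasted overnight, 3 in each of 12 groups. Within each sex, GL00 were *Gulo*-/- mice left without ascorbate (vitamin C) for the last 4 weeks, and GL01 and GL05 were *Gulo*-/- mice on 0.01% and 0.05% ascorbate in drinking water since weaning. GLR40 were *Gulo*-/- mice deprived for 4 weeks and then given 0.4% ascorbate again for 4 weeks, WT00 were wild type mice that drank no ascorbate, and GL40 were *Gulo*-/- mice kept on 0.4% ascorbate since weaning. The prefixes F and M stand for females and males. *Gulo* encodes gulonolactone oxidase, which completes ascorbate synthesis in mice, and the mutant, which lacks it in every tissue, depends on ascorbate in its water. The labels do not name separate litters or cages, so p-values measure the spread between these mice. Values are TPM, a level per transcript length scaled so that each mouse sums to 1000000. A TPM is therefore a share of all transcripts measured, and not of RNA mass. Each ± gives the SD, with n = 3 mice where no n follows.

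Each strand of mitochondrial DNA is transcribed as a long precursor that is cut into single RNAs, mostly at the tRNAs lying between the genes. Because the mRNAs of a strand are made together, their different levels are known to depend on processing, polyadenylation and stability. The proteins are made inside the organelle and join nuclear-encoded subunits in complexes I, III, IV and V, which carry electrons from NADH to oxygen, pump protons and make ATP. Liver is rich in mitochondria, and these mRNAs are among its most abundant.

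The libraries were made from poly(A) RNA, so the ends of the mRNAs, where the tail is added, are the part by which they were captured. The last 30 bases of each member as annotated follow, 5′ to 3′, from the GENCODE M21 transcripts (GRCm38, chromosome MT). These are ends of the annotated genes, and the sites where tails were added in these livers were not mapped, so an mRNA may run further. All 10 lie on the plus strand and have no introns. Capitals mark the encoded part of the stop codon.
ND1: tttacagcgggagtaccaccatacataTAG
ND2: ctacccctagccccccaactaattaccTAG
COX1: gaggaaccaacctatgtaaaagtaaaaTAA
COX2: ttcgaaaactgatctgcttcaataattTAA
ATP6: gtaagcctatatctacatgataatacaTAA
COX3: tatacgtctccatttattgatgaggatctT
ND3: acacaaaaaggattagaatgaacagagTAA
ND4: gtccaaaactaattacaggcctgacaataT
ND5: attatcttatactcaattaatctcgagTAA
CYTB: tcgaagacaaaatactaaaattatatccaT
*COX3*, *ND4* and *CYTB* end in a bare T, and their stop codon is known to be completed by the poly(A) tail. The other 7 encode a whole TAA or TAG. The transcripts run from 348 bases (*ND3*) to 1824 bases (*ND5*), with 33% to 39.9% G or C (*ND3* and *COX1*). At the other end *ND1* starts with GTG, *ND2* with ATA, *ND3* with ATT and *ND5* with ATC, and the other members start with ATG.

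*ND6*, a complex I subunit, is the only mRNA on the opposite strand, and it runs tail to tail into *ND5*. The 2 annotated transcripts overlap by 14 bases, shown in capitals at the end of each, both 5′ to 3′ on their own strand.
ND5: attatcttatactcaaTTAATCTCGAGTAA
ND6: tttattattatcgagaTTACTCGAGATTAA
The library kit marks strand, but whether the quantification used it is not given in the sources used here. If it was not used, reads of the overlap could count for either gene, which was not tested. No stretch of 31 bases of *ND5* was found reversed in another annotated transcript, but an overlap of 14 bases cannot hold such a stretch. The search also does not cover RNA beyond the annotated ends, so it cannot show whether reads were counted for the wrong strand. *ATP8* and *ATP6* overlap by 43 bases on the same strand and *ND4L* and *ND4* by 7 bases, as parts of shared mRNAs.

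The labels were checked on marker genes. *Gulo* transcripts were listed at 16.4 to 52.2 TPM in the 30 *Gulo*-/- mice, against 144 to 269 TPM in the 6 wild type mice. The Y-linked *Ddx3y* was at most 0.875 TPM in the 18 females, against 15.1 to 29.1 TPM in the 18 males. Among 8 hepatocyte markers none was at 0 in any group. FGL40-2695 stood apart by its pancreatic RNA, and the called members and the nuclear gene lists of the comparison of FGL00 with FGL40 are also given without it. TPM hold no depth, so no counting error can be given, and the spread between mice is the only error used.

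Together the 10 mRNAs made up 8.65% to 11.7% of the TPM of a liver, with a mean of 10.4 ± 0.726% (n = 36). The 13 mRNAs made up 11.47% to 15.8%. The sum of the 10 was 10.4 ± 0.496% in the females, against 10.4 ± 0.916% in the males (n = 18 per sex). The complex IV members had the largest part, 4.49 ± 0.332% of the TPM (n = 36), against 2.99 ± 0.271% for the 5 complex I members, 1.82 ± 0.135% for *ATP6* and 1.13 ± 0.102% for *CYTB*.

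The members differed in level far more than the mice did. On the TPM scale, which is per length, *COX1*, a core subunit of cytochrome c oxidase, averaged 19330 ± 1744 TPM (n = 36). *ATP6*, a proton channel subunit of the ATP synthase, averaged 18196 ± 1348 TPM and lay below *COX1* in 31 of 36 livers. *COX3* averaged 13959 ± 1166 TPM, and *COX2*, which takes up electrons from cytochrome c, 11580 ± 970 TPM. *CYTB*, the haem-binding core of complex III, averaged 11266 ± 1019 TPM and was the lower of the pair with *COX2* in 25 of 36 livers, so that these neighbours in the order were not apart by more than their spread.

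The complex I members came last. *ND1* averaged 8172 ± 1060 TPM, *ND2* 8040 ± 979 TPM and *ND4* 7665 ± 609 TPM. These 3 mRNAs for membrane-arm subunits could not be ordered, since *ND1* exceeded *ND2* in 17 livers and *ND2* exceeded *ND4* in 23 of 36. *ND5*, the membrane subunit at the far end of the arm, averaged 4248 ± 698 TPM and lay below *ND4* in all 36 livers. *ND3* was lowest at 1736 ± 229 TPM in every liver. The coefficient of variation over the 36 mice lay between 7.41% (*ATP6*) and 16.4% (*ND5*). *ND6* varied by 21.3%.

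**Figure D1:**
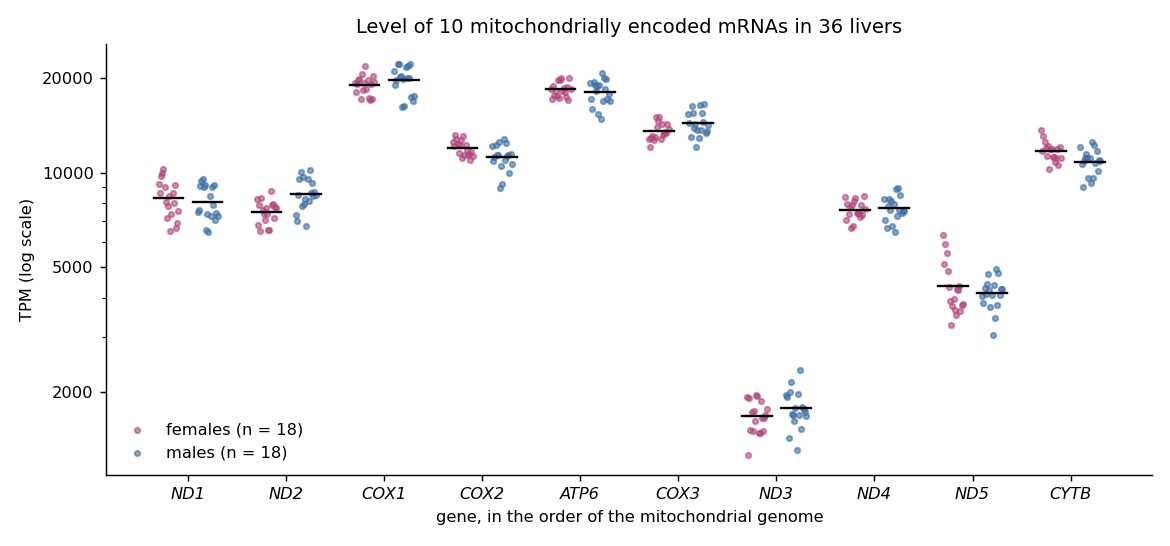
TPM (log axis) of the 10 members in 36 livers, in the order of the genome, with females left of males and a line at the mean of each sex (n = 18). *COX1* and *ATP6* lie highest, near 19330 and 18196 TPM on average, and *ND3* lowest, near 1736 TPM, while *ND5* has a group of females above the rest.

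Part of these levels rests on how reads were shared out with the nuclear genome, which carries pieces of mitochondrial DNA. From a preset list of predicted nuclear copies, 9 aligned to mitochondrial mRNAs, all of them in the table. The list is not the full set, since stretches of the members also occur in other nuclear transcripts. *Gm28661* is identical to *COX2* over 681 bases and was listed at 1339 to 5117 TPM. *Gm29216* matches *COX1* at 99.8% over 483 bases and averaged 5484 TPM, and *Gm28438* matches *ND3* at 99.7% over 345 bases and averaged 2921 TPM. *Gm10925*, identical to *ATP6* over 678 bases, averaged 648 TPM. The other 5 copies averaged at most 3.32 TPM. Reads of such stretches cannot be told apart from those of the mitochondrial gene, so these levels and those of *COX1*, *COX2*, *ATP6* and *ND3* are uncertain. If the copies are added to their member by length, they hold 62.6% of the sum of *ND3* on average (56.8% to 69.5%), 21.4% of that of *COX2* (9.24% to 34.8%), 8.28% of that of *COX1* and 3.36% of that of *ATP6*. *ND3* then averages 4631 ± 460 TPM (n = 36), a higher value than that of *ND5*.

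The members differ in how much of them is shared with nuclear transcripts. Of all stretches of 31 bases, *ND1* shared 0%, *CYTB* 6.55%, *ND2* 13.5% and *ND5* 16.8%. The values of *ND4* (62.8%), *COX1* (63.9%), *ND3* (98.1%), *ATP6* (99.5%), *COX3* (99.9%) and *COX2* (100%) were much higher. *ND1*, *ND2*, *ND5* and *CYTB* had no listed copy, so adding copies leaves their TPM as deposited. Transcripts of 2 nuclear genes share stretches with *ND2*, of 2 with *ND5* and of 1 with *CYTB*, but nothing was added to these members for them.

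The first comparison asked what 4 weeks without ascorbate did to these mRNAs in females. In the data 2 members of the 10 were higher in FGL00 than in FGL40, both of complex I. *ND5* had 6347, 5122 and 5936 TPM in FGL00, against 3963, 3647 and 3530 TPM in FGL40. Every FGL00 liver lay above every FGL40 liver, and the lowest exceeded 14 of the 15 other females. The fold change was 1.56 (95% interval 1.35 to 1.80), a log2 difference of 0.64 (SE 0.098, limma adjusted p = 0.00039 over 18050 genes). *ND1*, the subunit next to the quinone site, had 9209, 8600 and 9748 TPM in FGL00, against 8416, 6508 and 7369 TPM in FGL40. The groups did not overlap, with the lowest FGL00 liver next to the highest FGL40 liver. The log2 difference was 0.31 (SE 0.094, 95% interval 0.11 to 0.51, limma adjusted p = 0.026), or 1.24-fold. In this comparison 23.2% of all tested genes passed, 9.56% as higher and 13.7% as lower, and 2 of the 10 members passed, both higher.

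*ND6* had the largest difference of the 13 mitochondrial mRNAs, with 9579, 7364 and 8539 TPM in FGL00, against 5041, 4622 and 4581 TPM in FGL40. All 3 FGL00 livers lay above the 15 other females. The log2 difference was 0.83 (SE 0.12, limma adjusted p = 0.00029). *ND5* and *ND6* were thus both higher, while *CYTB*, which lies beyond *ND6* on the genome, did not pass. Whether the reads of *ND5* and *ND6* were kept apart by strand is not known. The *ND1* call did not hold without FGL00-2788 (0.31, adjusted p = 0.065), FGL00-2791 (0.27, 0.098), FGL40-2695 (0.22, 0.13) or FGL40-2696 (0.31, 0.067). *ND5* stayed called without any single mouse (0.57 to 0.73, adjusted p at most 0.0030), and *ND6* likewise (0.74 to 0.93).

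**Figure D2:**
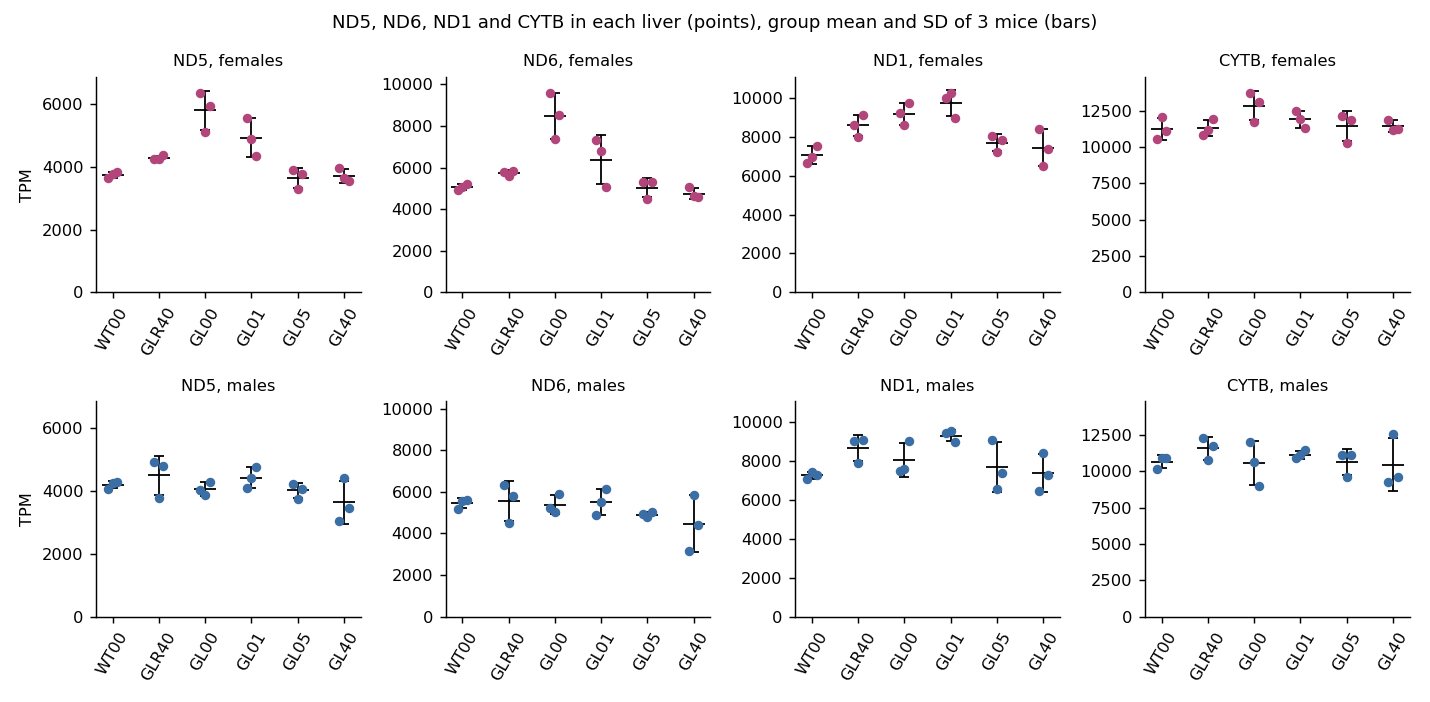
TPM of *ND5*, *ND6*, *ND1* and *CYTB* in each liver (points) with the group mean and SD of 3 mice (bars), females above and males below. In females the FGL00 livers reach 5122 to 6347 TPM for *ND5* and 7364 to 9579 TPM for *ND6*, above the FGL40 livers, while MGL00 and MGL40 livers overlap for *ND5*.

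The other 8 members differed less. *CYTB* had 13709, 11732 and 13076 TPM in FGL00, against 11883, 11191 and 11220 TPM in FGL40. These groups overlapped, and the log2 difference of 0.17 did not pass (95% interval -0.011 to 0.34, limma adjusted p = 0.17). *COX3* had 12045 to 12838 TPM in FGL00, against 12777 to 15057 TPM in FGL40. Its difference of -0.16 had an unadjusted p of 0.029 and an adjusted p of 0.096 in limma. The remaining 6, *ND2*, *COX1*, *COX2*, *ATP6*, *ND3* and *ND4*, had log2 differences between -0.087 and 0.16. Their 95% intervals lay within -0.28 and 0.36, the widest being that of *ND3*. The median over the 10 members was 0.042, against -0.019 over all genes tested.

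**Figure D3:**
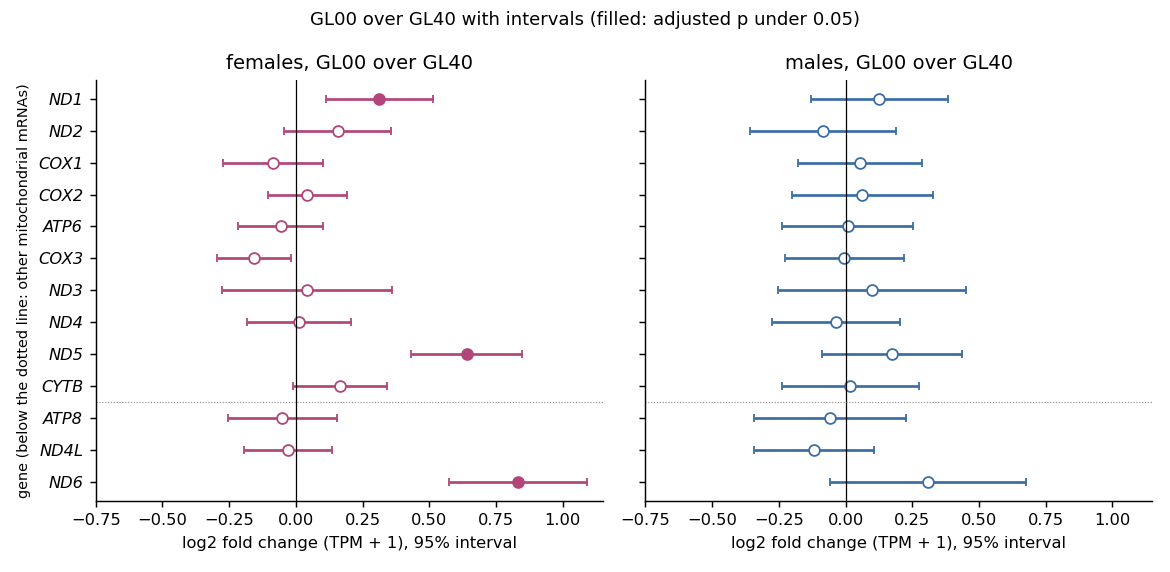
Log2 fold change of TPM + 1 with its 95% interval for GL00 over GL40 in females (left) and males (right), for the 10 members and, below the dotted line, the 3 other mitochondrial mRNAs. In females the intervals of *ND1*, *ND5* and *ND6* lie above 0 and are called (filled), and in males no gene is called, with *ND5* at 0.17 (-0.088 to 0.44).

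Relative to its peers *ND5* also stood out. Its TPM were 51.5 ± 3.09% of the mean of the 9 other members in FGL00, against 33.4 ± 1.42% in FGL40. *ND1* had 84.4 ± 2.74% of the mean of the other members in FGL00, against 69.1 ± 4.52% in FGL40. The sum of the 10 mRNAs was 10.7 ± 0.610% of the TPM in FGL00, against 10.4 ± 0.724% in FGL40, so its total differed by less than the spread between mice.

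Cell markers moved with the same contrast. In whole liver, fewer cells of a type and less RNA per cell cannot be told apart. The sum of 7 erythroid markers was 3189 to 5813 TPM in FGL00, against 1058 to 1309 TPM in FGL40, and all 6 tested ones passed as higher. The sum of 8 neutrophil markers was 476 to 676 TPM in FGL00, against 44.9 to 69.5 TPM in FGL40, with 6 of 6 tested higher. The 8 hepatocyte markers summed to 79237 to 93424 TPM in FGL00, against 87323 to 90760 TPM in FGL40. The 15 pancreatic acinar markers summed to 11.7 to 14.97 TPM in FGL00, with 8 of them at 0 (*Prss2*, *Try4*, *Ctrb1*, *Cpa1*, *Pnlip*, *Clps*, *Rnase1* and *Cel*), against 28.5 to 14477 TPM in FGL40, where the highest value came from FGL40-2695. Without that mouse the difference of *ND5* was 0.63 (adjusted p = 0.0022). The part of the blood cell markers in the values of *ND1*, *ND5* and *ND6* was not tested.

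Females kept on 0.01% ascorbate had the same 2 members above FGL40. *ND1* had 9976, 10245 and 8987 TPM in FGL01, all above the 8416, 6508 and 7369 TPM of FGL40, with a log2 difference of 0.40 (SE 0.094, limma adjusted p = 0.0090). *ND5* had 5560, 4881 and 4332 TPM in FGL01, against 3963, 3647 and 3530 TPM in FGL40, again without overlap, and its log2 difference was 0.40 (SE 0.098, limma adjusted p = 0.010). *ND6* had 7304, 6799 and 5045 TPM in FGL01 and its lowest liver only just exceeded the highest of FGL40, at 5041 TPM (log2 difference 0.41, adjusted p = 0.026). Of all genes 19.9% passed here, 14.3% as higher and 5.58% as lower, against 2 of 10 members, both higher.

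These FGL01 calls depended on the scaling. After median-ratio scaling, which equalizes the median ratio of the genes of each liver to their average over livers, the members shifted by -0.14 on the log2 scale. The values became 0.25 for *ND1* (adjusted p = 0.14), 0.26 for *ND5* (0.18) and 0.27 for *ND6* (0.24), and no member passed. Without FGL40-2695 the values were 0.30 for *ND1* (adjusted p = 0.046) and 0.39 for *ND5* (0.033). Over all genes the calls were 2584 higher and 1008 lower as deposited, and 1356 higher and 1767 lower after scaling. The *ND6* call also needed FGL01-2722 (0.30 without it, adjusted p = 0.10), FGL01-2723 (0.36, 0.097), FGL40-2695 (0.39, 0.075) and FGL40-2696 (0.39, 0.083). Neutrophil markers summed to 50.4 to 431 TPM in FGL01, against 44.9 to 69.5 TPM in FGL40, with 2 of 6 passing as higher, and 4 of 6 lymphocyte markers passed as higher. Other marker sums were higher in FGL01 without overlap. They were 414 to 563 TPM, against 318 to 358 TPM, for Kupffer cells and macrophages. Endothelial markers had 173 to 197 TPM, against 146 to 159 TPM, and stellate and fibroblast markers 222 to 252 TPM, against 178 to 187 TPM. The part of all these markers was not tested.

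By dose, *ND5* averaged 5802 ± 623 TPM in FGL00, 4924 ± 615 TPM in FGL01, 3647 ± 322 TPM in FGL05 and 3714 ± 224 TPM in FGL40. *ND1* averaged 9185 ± 574, 9736 ± 662, 7691 ± 441 and 7431 ± 956 TPM in the same 4 groups. FGL05 and FGL40 were within their spread of each other for both genes. In limma 0 of 10 members passed for FGL05 over FGL40, and 0 had an unadjusted p under 0.05, where 0% of all genes passed. Their log2 differences lay between -0.042 (*COX1*) and 0.12 (*ND3*), with intervals within -0.24 and 0.44. In FWT00 over FGL40 0 of 10 members passed, with 0 at an unadjusted p under 0.05, where 0.183% of all genes passed, 0.133% as higher and 0.0499% as lower. *ND5* had 3627, 3784 and 3821 TPM in FWT00, inside the range of FGL40 (log2 difference 0.013, 95% interval -0.19 to 0.22).

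Giving ascorbate back was set against its lack in the females of GLR40 and GL00. *ND5* had 4256, 4236 and 4362 TPM in FGLR40, against 6347, 5122 and 5936 TPM in FGL00, and the groups did not overlap. The log2 difference was -0.43 (SE 0.098, limma adjusted p = 0.0062), and it stayed called without any single mouse (-0.52 to -0.36). *ND6* had 5802, 5572 and 5849 TPM in FGLR40, against 9579, 7364 and 8539 TPM in FGL00 (-0.56, adjusted p = 0.0050). *ND1* had 8008 to 9104 TPM in FGLR40, against 8600 to 9748 TPM in FGL00, and did not pass (-0.099, adjusted p = 0.50). Of all genes 22% passed, 16.6% as higher and 5.3% as lower, against 1 of 10 members, lower. The erythroid markers (6 of 6 tested) and the neutrophil markers (6 of 6) passed as lower in the same comparison. The erythroid sum was 788 to 916 TPM in FGLR40, against 3189 to 5813 TPM in FGL00, and the part of these markers was not tested. After median-ratio scaling *COX2* (-0.29, adjusted p = 0.027) and *CYTB* (-0.34, 0.043) also passed as lower, and the calls over all genes were 1633 higher and 1644 lower in place of 3005 and 957. The nuclear copies held 18.8% of the *COX2* sum in FGLR40, against 9.96% in FGL00. With copies added to the deposited TPM, *COX2* had 14228 ± 823 TPM in FGLR40, against 13984 ± 459 TPM in FGL00. Its scaled call was not tested with copies added.

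Set against FGL40, the FGLR40 livers gave no called member. *ND5* had 4256, 4236 and 4362 TPM in FGLR40 and at most 3963 TPM in FGL40, without overlap, but its log2 difference of 0.21 had a limma adjusted p of 0.26. Its mean in FGLR40 (4284 TPM) lay between those of FGL00 and FGL40. So did those of *ND1* (8578 TPM) and of the uncalled *COX3* (13344 TPM) and *ND3* (1681 TPM). *ND2* in FGLR40 was above both means, and *COX1*, *COX2*, *ATP6*, *ND4* and *CYTB* were below both. In all 0 of 10 members passed in this comparison, where 2.27% of all genes did (1.65% as higher, 0.626% as lower). *ND1* (0.21) and *ND2* (0.26) had an unadjusted p under 0.05. *ND2* had 7885 to 8768 TPM in FGLR40, against 6569 to 7387 TPM in FGL40.

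**Figure D4:**
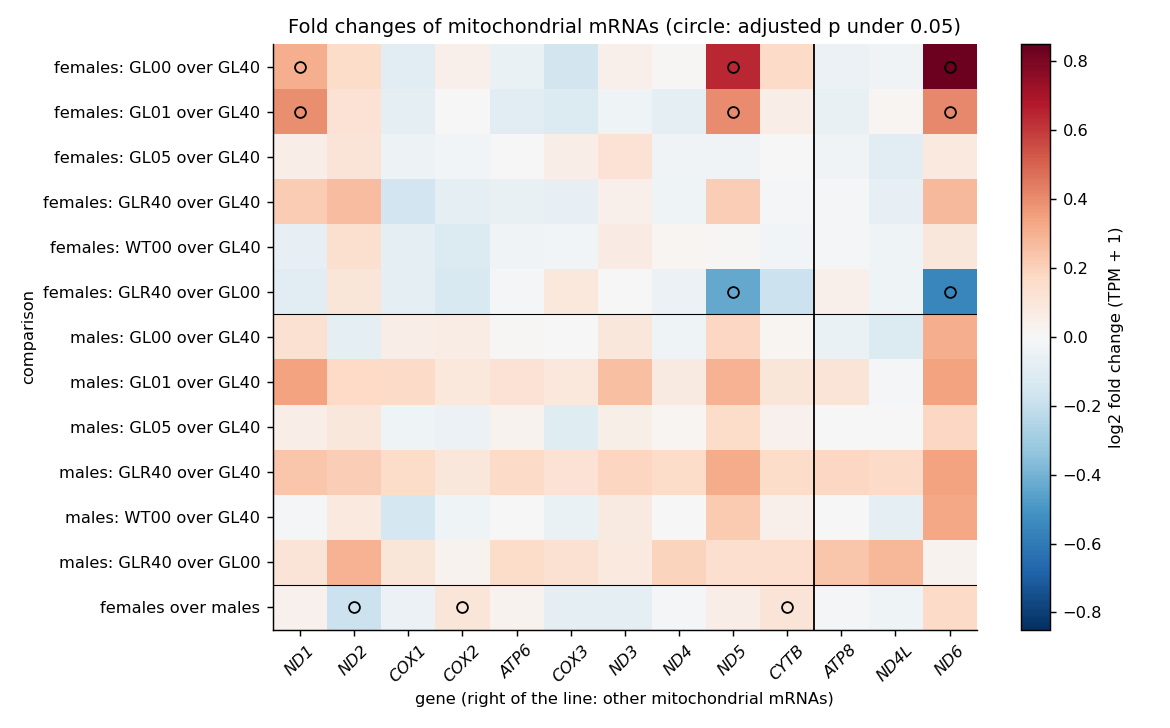
Log2 fold change of TPM + 1 (colour) of the 10 members and the 3 other mitochondrial mRNAs in 6 comparisons of each sex and between the sexes, with a circle for an adjusted p under 0.05. The circles of the treatment comparisons fall on *ND1*, *ND5* and *ND6* in females, and there are none in males.

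Males gave no call in any of the same 6 comparisons. For MGL00 over MGL40, 0 of 10 members passed and 0 had an unadjusted p under 0.05 in limma, where 12.3% of all genes passed (9.85% as higher, 2.45% as lower). *ND5* had 4040, 3862 and 4288 TPM in MGL00, against 3052, 4408 and 3459 TPM in MGL40, and the groups overlapped. Its log2 difference was 0.17 (95% interval -0.088 to 0.44, adjusted p = 0.40). *ND1* had 7473 to 9054 TPM in MGL00, against 6469 to 8406 TPM in MGL40. The MGL40 livers were widely spread, with sums of the 10 members at 8.65% to 11.7% of the TPM, nearly the range of all 36 mice.

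For MGL01 over MGL40 all 10 members had a positive difference (0.076 to 0.34) and 0 of 10 passed, where 3.43% of all genes did (1.96% as higher, 1.46% as lower). The median over the members was 0.14, against 0.037 over all genes tested. All 45 pairs of members were positively correlated in males, so 10 positive differences are not 10 separate observations. *ND1* (0.34) and *ND5* (0.30) had an unadjusted p under 0.05, and adjusted values of 0.13 and 0.21. *ND1* had 9429, 9542 and 8975 TPM in MGL01, all above the highest MGL40 liver at 8406 TPM. For MGL05 0 of 10 passed (0 at an unadjusted p under 0.05), where 0.0566% of all genes did (0.0396% as higher, 0.017% as lower). In MGLR40 10 of 10 differences were also positive, both over MGL40 (0.096 to 0.32) and over MGL00 (0.032 to 0.30). The medians over the members were 0.16 and 0.13, against 0.031 and -0.037 over all genes tested. For MGLR40 over MGL40 0 of 10 passed (1 at an unadjusted p under 0.05, *ND5* with 0.32), where 0.00566% of all genes did, and for MWT00 0 of 10 (0 unadjusted), where 0.453% did (0.3% as higher, 0.153% as lower). For MGLR40 over MGL00 0 of 10 passed, where 9.13% of all genes did (2.98% as higher, 6.15% as lower), and *ND2* (0.30) had an unadjusted p under 0.05. In all, 5 of 120 tests of a member in a treatment comparison passed, all 5 in females, and 8 members passed in none.

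Whether the sexes differed in the response to the lack of ascorbate was tested directly. The difference of *ND5* between GL00 and GL40 was larger in females than in males by 0.46 on the log2 scale (SE 0.16, limma adjusted p = 0.0495 over 18336 genes). It was the 1 member of 10 that passed, where 13.3% of all genes did (2.38% as higher, 10.9% as lower). The call stood at the threshold. It was lost without each of 10 of the 12 mice of these groups (adjusted p 0.052 to 0.18) and held without FGL00-2790 or MGL40-2690. The 10 mice were FGL00-2788, FGL00-2791, FGL40-2694, FGL40-2695, FGL40-2696, MGL00-2783, MGL00-2784, MGL00-2787, MGL40-2691 and MGL40-2719, with differences of 0.32 to 0.51 without them. *ND1* (0.19, adjusted p = 0.49) and *ND6* (0.52, 0.11) did not pass. After median-ratio scaling the value for *ND5* was 0.65 (adjusted p = 0.014), and after scaling to the nuclear total it was 0.47 and not called (0.069).

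Across treatments, 3 members differed between the sexes. *ND2* was lower in females in the fit, with a range of 6537 to 8768 TPM (median 7644) in the 18 females and of 6781 to 10186 TPM (median 8487) in the 18 males. The ranges overlapped, and the log2 difference was -0.18 (SE 0.046, limma adjusted p = 0.0018). It was called without each of the 36 mice in turn. *COX2* had 10998 to 13123 TPM (median 11966) in females, against 8944 to 12824 TPM (median 11305) in males, a log2 difference of 0.10 (SE 0.040, adjusted p = 0.035). *CYTB* had 10247 to 13709 TPM (median 11808) in females, against 8986 to 12536 TPM (median 10920) in males, a difference of 0.11 (SE 0.043, adjusted p = 0.036). Of all genes 43.6% passed, 36.2% as higher and 7.37% as lower, against 3 of 10 members.

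Of these 3, only *ND2* kept its direction and call under the median-ratio, nuclear total and mitochondrial total scalings. After median-ratio scaling *COX2* was at -0.031 (adjusted p = 0.59) and *CYTB* at -0.024 (0.74), *COX1*, *COX3*, *ND3* and *ND4* passed as lower, and the calls over all genes were 3632 higher and 3619 lower in place of 6639 and 1352. *COX2* also turned when its nuclear copies were added. The sum was then 14602 ± 787 TPM in the females, against 14907 ± 1290 TPM in the males (n = 18 per sex), with a log2 difference of -0.027 (adjusted p = 0.57). The copies held 17.8% of the sum in females, against 25% in males. *Gm28661* alone averaged 2629 ± 818 TPM in females, against 3744 ± 791 TPM in males (-0.56, adjusted p = 0.00029). Without single mice *COX2* was lost in 8 of 36 fits (FGL00-2791, FGL05-2894, FGL05-2895, FGL40-2694, MGL00-2784, MGL05-2897, MGL40-2690 and MWT00-2677, at 0.085 to 0.099). *CYTB* was lost in 11 of 36 (FGL00-2788, FGL00-2791, FGL05-2894, FGL40-2694, FWT00-2642, MGL00-2784, MGL00-2787, MGL05-2897, MGL40-2690, MGL40-2719 and MWT00-2677, at 0.090 to 0.11).

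**Figure D5:**
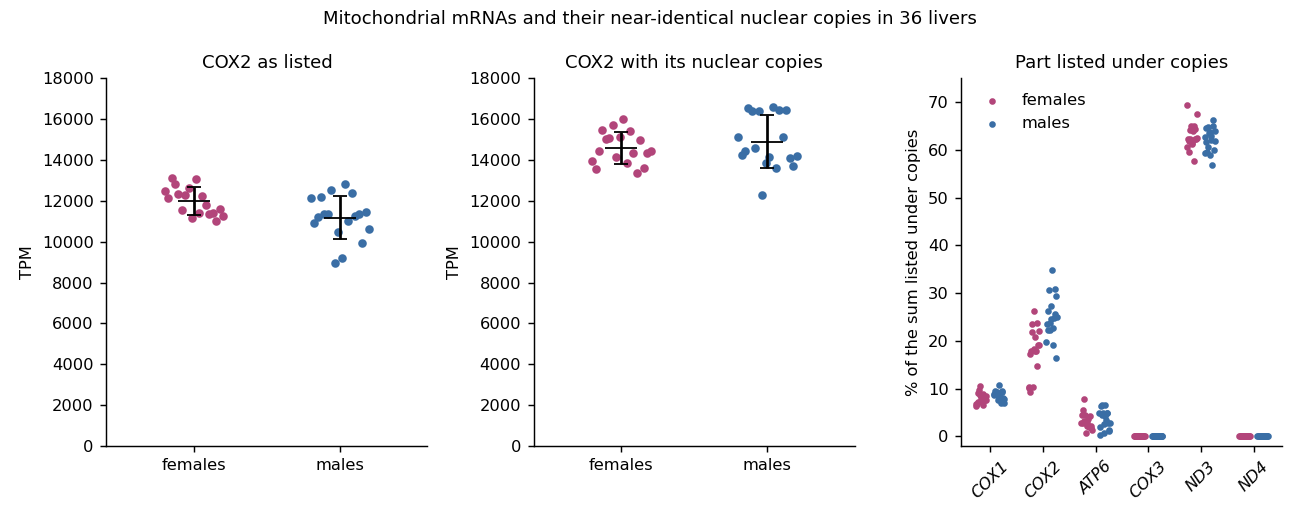
TPM of *COX2* as listed (left) and with its nuclear copies added (middle) in 18 females and 18 males, with mean and SD, and the percentage of each sum listed under copies (right). Listed *COX2* has a median of 11966 TPM in females and 11305 TPM in males, the sums average 14602 and 14907 TPM, and *ND3* has the largest part of its sum, 56.8% to 69.5%, under a copy.

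The split with the copies also differed between FGL00 and FGL40. *Gm28661* had 1395 ± 58.9 TPM in FGL00, against 2872 ± 373 TPM in FGL40 (log2 difference -1.03, limma adjusted p = 0.015), and the copies held 9.96% of the *COX2* sum in FGL00, against 18.9% in FGL40. *Gm29216*, the copy of *COX1*, had 4136 ± 115 TPM in FGL00, against 5666 ± 353 TPM in FGL40 (-0.45, adjusted p = 0.018). Without FGL40-2695 both stayed called (-1.14 and -0.49). These were the 2 called of 7 tested copies, near the 23.2% of all genes that passed (13.7% as lower), and after median-ratio scaling 1 of 7 was called, lower. In FGL01 and in the males the shares overlapped and 0 of 7 copies passed. Of all genes 19.9% passed for FGL01 over FGL40 and 12.3% for MGL00 over MGL40. The *COX2* copies held 17.3%, 17.8% and 23.5% of the sum in FGL01, against 18.2%, 17.8% and 20.8% in FGL40. They held 19.8%, 23.6% and 22.2% in MGL00, against 34.8%, 22.7% and 19.2% in MGL40. Whether these nuclear loci are transcribed, or whether their values are reads of the mitochondrial mRNA, was not tested.

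The members were also correlated over the 36 livers, as a description. All points share the fixed TPM sum, and correlations are over mice of all groups. The median Spearman correlation of the 45 pairs was 0.41, and 43 pairs were positive. The closest pair was *ATP6* and *ND4* with 0.89, and the farthest was *COX3* and *ND5* with -0.096. Within the 18 females the median was 0.32 with 36 of 45 pairs positive, and the range was wider, with -0.61 for *COX3* and *ND5* and 0.90 for *ND1* and *ND5*. Within the 18 males all 45 pairs were positive with a median of 0.70. Relative to the total of the 13 mitochondrial mRNAs of each mouse, the median over 36 mice was -0.018 and 22 of 45 pairs were positive. *ND5* and *ND6* had a Spearman correlation of 0.89 and a Pearson correlation of 0.95 over the 36 mice, 0.91 in females and 0.89 in males (Spearman), although they lie on opposite strands.

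Nuclear genes that serve these mRNAs were counted from lists. For FGL00 over FGL40, where 9.56% of all genes were higher and 13.7% lower and their median was -0.019, each of these lists had more genes called lower than higher. Of 29 tested genes of mitochondrial RNA processing and turnover 3 were higher and 12 lower (median -0.32), and of 19 translation factors 1 was higher and 10 lower (median -0.34). Of 24 genes of mitochondrial DNA transcription and replication 2 were higher and 6 lower (median -0.18). After median-ratio scaling these counts were 3 and 9, 1 and 9, and 2 and 4, and without FGL40-2695 they were 2 and 10, 1 and 9, and 1 and 4. All genes as deposited also had more calls lower than higher. The transcription and replication counts after scaling and without that mouse are small. The shares over all genes given here are as deposited with all mice, so these counts are no result about this list. *Lrpprc*, which stabilizes mitochondrial mRNAs, had 30.8 ± 1.76 TPM in FGL00, against 38.2 ± 2.09 TPM in FGL40 (log2 difference -0.31, adjusted p = 0.015). *Tufm*, the mitochondrial elongation factor Tu, had 41.9 ± 0.535 TPM in FGL00, against 71.1 ± 2.43 TPM in FGL40 (-0.75, adjusted p = 0.00063).

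The same lists held genes of both directions. *Slc25a33*, a mitochondrial carrier of pyrimidine nucleotides, had 30.2 ± 1.83 TPM in FGL00, against 10.8 ± 2.11 TPM in FGL40 (log2 difference 1.41, adjusted p = 0.00092). *Hsd17b10*, a subunit of mitochondrial RNase P, had 346 ± 31.2 TPM in FGL00, against 139 ± 13.5 TPM in FGL40 (1.31, adjusted p = 0.00059). *Grsf1*, an RNA-binding protein of mitochondrial RNA granules, had 69.2 ± 2.73 TPM in FGL00, against 57.9 ± 1.39 TPM in FGL40 (0.25, adjusted p = 0.049). *Rexo2*, an exonuclease that degrades short mitochondrial RNAs, was lower (-0.32, adjusted p = 0.029). *Tk2* (0.30), a thymidine kinase of mitochondria, was higher, and *Top1mt* (-0.23), *Dguok* (-0.27), and the translation factors *Gfm1* (-0.27), *Gfm2* (-0.64) and *Mtif3* (-0.58) were lower. Without FGL40-2695 the calls of *Grsf1* (0.27, adjusted p = 0.078), *Tk2* (0.31, 0.075) and *Dguok* (-0.22, 0.18) were lost.

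Most nuclear partners in the complexes did not pass for FGL00 over FGL40, and those that did were lower with 1 exception, *Cox7a2l*. For FGL01 over FGL40, 14.3% of all genes passed as higher and 5.58% as lower. The most abundant called subunits there had positive differences when refitted without FGL40-2695. *Uqcr10* (0.40, limma adjusted p = 0.0023) and *Cox4i1* (0.36, 0.012) stayed called. The calls of *Ndufa7* (0.25, 0.063), *Ndufb11* (0.18, 0.12), *Uqcrq* (0.16, 0.13), *Cox7c* (0.23, 0.051) and *Atp5h* (0.22, 0.057) were lost. These subunits are not given after median-ratio scaling, on which the FGL01 calls of the members depended. Against a background of 13.7% of all genes lower and 9.56% higher, of 36 complex I subunits 0 were higher and 10 lower in FGL00, for example *Ndufab1* with 111 ± 1.33 TPM, against 173 ± 5.68 TPM in FGL40 (log2 difference -0.63, adjusted p = 0.00035). *Ndufb8* (-0.29) and *Ndufb10* (-0.24) were others. Of 9 complex III subunits 2 were lower, *Cyc1* (-0.30, adjusted p = 0.027) and *Uqcrc2* (-0.25, 0.015), and the other 7, *Uqcr10*, *Uqcr11*, *Uqcrb*, *Uqcrc1*, *Uqcrfs1*, *Uqcrh* and *Uqcrq*, had differences of -0.17 to 0.05. Of 12 complex IV subunits 1 was higher, *Cox7a2l* (0.32, adjusted p = 0.030), and 2 were lower, *Cox5a* (-0.32) and *Cox7a2* (-0.25). Of 16 complex V subunits 5 were lower, among them *Atp5k* (-0.45), *Atp5e* (-0.35), *Atp5g1* (-0.31) and *Atp5c1* (-0.21), and of 20 assembly factors of complexes III and IV 8 were lower, among them *Coa3* (-0.70), *Sco2* (-0.51), *Cox17* (-0.33) and *Uqcc2* (-0.32). Of 18 genes of uncoupling and stress 2 were higher and 8 lower, with *Atf5* (-0.46), *Slc25a5* (-0.18), *Sod2* (-0.27) and *Hspe1* (-0.25) the most abundant, and of 14 biogenesis regulators 1 was lower, *Ppard* (-0.63). After median-ratio scaling 5 complex I, 1 complex III, 1 complex IV and 4 complex V subunits and 6 assembly factors were lower, and 1 complex I and 1 complex IV subunit higher. The shares of complexes III and IV as deposited are close to the background and are no result about these lists. Shares after scaling are set against no background at that scaling here, and that of complex I is no result either. Without FGL40-2695, where 1326 of all genes were higher and 2002 lower, 6 complex I, 1 complex III, 2 complex IV and 4 complex V subunits, 5 assembly factors and 4 genes of uncoupling and stress were lower, and 1 of the last list was higher. The calls lost included *Ndufb10* (-0.22, adjusted p = 0.11), *Cyc1* (-0.29, 0.066), *Cox7a2l* (0.32, 0.072), *Atp5c1* (-0.23, 0.058), *Atf5* (-0.46, 0.054), *Slc25a5* (-0.20, 0.078), *Sod2* (-0.25, 0.13) and *Hspe1* (-0.26, 0.070).

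In FGLR40 over FGL00, where 22% of all genes passed, 18 of the 29 RNA processing genes were higher and 1 lower, and 10 of the 24 transcription and replication genes were higher and 1 lower. *Lrpprc* had 44.9 ± 2.53 TPM in FGLR40, against 30.8 ± 1.76 TPM in FGL00 (log2 difference 0.53, adjusted p = 0.00069). *Tfam*, the packaging and transcription factor of mitochondrial DNA, had 48.8 ± 1.17 TPM in FGLR40, against 38.1 ± 2.42 TPM in FGL00 (0.35, adjusted p = 0.032). *Tfb2m* (0.52), *Ssbp1* (0.26), *Rexo2* (0.46) and *Tbrg4* (0.38) were also higher, and *Slc25a33* (-0.73) and *Hsd17b10* (-1.12) were lower. Complex I subunits passed as higher in 19 of 36 and lower in 0, but this direction did not hold after median-ratio scaling, with 2 higher and 3 lower. The RNA processing genes kept 15 higher and 1 lower there, and the transcription and replication genes 4 higher and 2 lower. The latter counts are small, and the share over all genes given here is as deposited, so they are no result about this list. For MGL00 over MGL40, where 12.3% of all genes passed, the counts were 0 higher and 0 lower of the 24 transcription and replication genes, 1 and 1 of the 29 RNA processing genes and 2 and 1 of the 36 complex I subunits. *Hsd17b10* was higher there too, at 267 ± 64.1 TPM in MGL00, against 176 ± 39.9 TPM in MGL40 (0.60, adjusted p = 0.043).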

How the data were processed

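The authors sequenced poly(A) RNA of whole liver (stranded kit, paired ends), trimmed reads with fastp 0.20.0, ran kallisto 0.46.2 against Ensembl mouse transcripts and deposited TPM per gene. How transcripts were summed, and the strand setting, are not given in the sources used here. Depth cannot be read from TPM.

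The 10 members were matched by Ensembl identifier. The tests used limma 3.58.1 with trend and robust settings (statmod 1.5.0, R 4.3.3), fitted to log2(TPM + 1) computed from the deposited TPM, over 18 mice per sex and genes above 0 TPM in at least 13 of them (18050 in females, 17661 in males). Both sexes were fitted over 36 mice. p-values were adjusted by Benjamini-Hochberg over all genes tested, with a threshold of 0.05, and measure the spread between mice. Fold changes are on the log2(TPM + 1) scale, which understates low genes. MGLR40-2831, whose title says female, was used as male by its animal name and sex label. No batch is labelled.

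Alternatives were median-ratio scaling, scaling to the nuclear total, log2(TPM + 0.1), no filter and leaving out each mouse. Another pair was chosen after seeing the data: scaling to the mitochondrial total, and adding nuclear copies to their member by length. The copies came from a preset list and were aligned with blastn 2.17.0. The members and the gene lists were chosen with earlier results of these data known. Named genes are all members, the other mitochondrial mRNAs, up to 4 most abundant genes past the test of each list (complex III in full), the 10 most and 5 least alike genes, markers that differ between groups, and label checks. For the nuclear lists the text names them for GL00 over GL40 and, for the RNA and transcription lists, GLR40 over GL00 in females. Counts of some lists are given for FGLR40 over FGL00 and MGL00 over MGL40, and none for the remaining comparisons. *Hsd17b10* in males also meets the rule. A result that the rule would name is not reported here. Tested on simulated data of 17980 genes for GL00 over GL40 in females, limma recovered 57.2% of genes changed by 0.5 and 88.4% of those changed by 1 on the log2 scale, with 10.2 false calls on average. Each run changed 200 genes, drawn from the more abundant ones, with independent normal noise. Far more genes were called in the livers, so these rates need not hold there.

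Sequences, names and lengths are from GENCODE M21 (GRCm38), and no coordinates are given, since the TPM rest on a later annotation. Python 3.11.15, pandas 2.3.3 and matplotlib 3.10.9 were used.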

Additional observations from a re-analysis of the deposited data

Results flagged for a closer look

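The difference of *ND5* between GL00 and GL40 differed between the sexes just inside the threshold. The log2 difference of GL00 over GL40 was larger in females than in males by 0.46 (SE 0.16, limma adjusted p = 0.0495, 95% interval 0.14 to 0.79). It was 0.64 in females and 0.17 in males, with 3 of 3 FGL00 livers above all 3 FGL40 livers and with overlap in males. The call was lost without each of 10 of the 12 mice of these groups (adjusted p 0.052 to 0.18), after scaling to the nuclear total (0.47, adjusted p = 0.069) and without a filter on low values. The cause was not tested.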

How the results depend on the processing

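No paired analysis was possible because the animal numbers are not shared between groups. Leaving out single mice gave 1 to 2 called members for FGL00 over FGL40, 1 to 3 for females over males and 0 to 1 for the difference of the sexes in GL00 over GL40. After median-ratio scaling the called members were 0 for FGL01 over FGL40, 3 for FGLR40 over FGL00 and 5 for females over males, where *COX2* was at -0.031 and *CYTB* at -0.024. Adding nuclear copies put *COX2* at -0.027. Scaling to the nuclear total left 1 member for females over males and 0 for the difference of the sexes, and fitting without a filter left 0 for the difference of the sexes. The median correlation among members was 0.62 after median-ratio scaling and 0.70 within males, and 0.32 within females and -0.018 relative to the mitochondrial total, in place of 0.41. Of 240 recomputed values of single genes, 193 kept direction and call, 44 lost the call and 3 turned. Counts over all genes moved more than 1.5 times for FGLR40 over FGL40 (410, with 263 after median-ratio scaling and 227 without a filter), MGL01 over MGL40 (605, with 374 without a filter), MWT00 over MGL40 (80, with 50 by nuclear total and 41 without a filter), MGL05 over MGL40 (10, with 16, 3 and 6 by median-ratio scaling, the smaller pseudocount and no filter) and MGLR40 over MGL40 (1, with 2 by median-ratio scaling and 3 without a filter). The cause was not tested. Scaling shifted the median of all genes by at most 0.089, and median-ratio scaling shifted the members by -0.16 to 0.19. With 3 mice a group the intervals above set the size of change that could be seen.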

Other observations

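Over the 36 livers, the genes outside the mitochondrial genome whose log2(TPM + 1) went most with the mean of the 10 members were ranked over 8703 genes whose mean TPM reached 5, as a description. They were *Fam53a* (Spearman 0.60, Pearson 0.52), the *ND3* copy *Gm28438* (0.59, 0.57), *Fbxw5* (0.58, 0.45), *Hira* (0.55, 0.42), the bile acid synthesis gene *Cyp7a1* (0.53, 0.53), *Tmem123* (0.53, 0.51), the *ATP6* copy *Gm10925* (0.52, 0.41), *Smlr1* (0.52, 0.52), *Gosr2* (0.52, 0.42) and ENSMUSG00000093392 (0.51, 0.49). Both nuclear copies share sequence with their member. The genes that went most the other way were *Trappc14* (-0.62, -0.56), *Ulk3* (-0.59, -0.46), *Nfe2l1* (-0.59, -0.43), *Nr2c1* (-0.55, -0.52) and *Caprin1* (-0.54, -0.48). All points share the fixed sum of TPM.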
